A study of Mus musculus with 2 samples.

Results

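Cd209a dendritic cells of the mouse liver were described here as 166 of the 13603 cells kept from 2 single-cell RNA libraries. The members were chosen by measured values, so those values are a description and not a result. A kept cell had under 10% of its UMIs (unique molecular identifiers, which count captured RNA molecules) on mitochondrial genes and over 200 detected genes. A member held at least 2 UMIs of Cd209a, at least 30 UMIs per 10000 of the class II genes H2-Aa, H2-Ab1 and H2-Eb1 together, and at most 1 UMI of Xcr1 and Clec9a together. It also held at most 2 UMIs of Cd79a, Cd3e and Siglech together, and under 20 UMIs per 10000 of Clec4f, Vsig4 and Cd5l together. The rule found 83 members among 7471 kept cells of the normal library and 83 among 6132 kept cells of the fibrosis library.

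The libraries came from hepatic non-parenchymal cells of male C57BL/6 mice aged 8 weeks, isolated by collagenase perfusion and freed of most hepatocytes by low-speed spins. One mouse received olive oil by intraperitoneal injection 2 times a week for 6 weeks (normal library), and the other received CCl4, a liver toxin, on the same schedule (fibrosis library). With 1 mouse and 1 library per condition, the effects of CCl4, mouse, cell isolation and library cannot be told apart, and there is no replicate check and no p-value. The intervals given are 95% intervals for counting error only.

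Conventional dendritic cells take up antigen, display it on MHC class II and class I, and carry it to T cells. They fall into a type 1 lineage, which depends on Irf8 and Batf3 and carries Xcr1 and Clec9a, and a type 2 lineage, which carries Sirpa, Itgam and C-type lectins and is linked to Irf4. Monocyte-derived cells of inflamed tissue can share Cd209a, Ccr2 and class II with the type 2 lineage. Cd209a encodes a mouse relative of the lectin DC-SIGN, which binds sugars on microbes and host cells.

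The Cd209a gene lies on chromosome 8 (GRCm38, chr8:3743397-3748984, minus strand), near its relative Cd209d (chr8:3871824-3878555, minus strand). Their start sites are shown because Cd209a chose the members and both hold a match to a composite of a PU.1 and an IRF half-site. The composite was searched as GGAA followed by GAAA with 2 bases of any kind between them, on both strands, in windows from 250 bases before to 50 bases after each RefSeq start (GRCm38.p6). Cybb, a subunit of the phagocyte oxidase, is added as a gene that was higher in members than in type 1 cells and holds a match by its start. Each stretch runs from 100 bases before to 30 bases after the start on the strand of the gene, and capitals mark the match.
Cd209a, chr8:3748955-3749084, minus strand: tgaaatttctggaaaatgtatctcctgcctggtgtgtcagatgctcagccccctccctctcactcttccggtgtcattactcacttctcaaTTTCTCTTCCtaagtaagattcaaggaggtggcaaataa
Cd209d, chr8:3878470-3878599, minus strand: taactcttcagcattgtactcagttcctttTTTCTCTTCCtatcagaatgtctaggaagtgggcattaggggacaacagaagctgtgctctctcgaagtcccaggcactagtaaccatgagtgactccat
Cybb, chrX:9469295-9469424, minus strand: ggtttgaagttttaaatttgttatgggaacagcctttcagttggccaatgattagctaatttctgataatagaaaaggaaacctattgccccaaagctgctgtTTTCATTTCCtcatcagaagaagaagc

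The match began 9 bases before the start of Cd209a, 70 bases before that of Cd209d and at base 4 of Cybb, in each case on the opposite strand. Of all 32851 RefSeq windows, 892 (2.72%) held it. Among genes with a window, 9 of the 132 that were higher in members than in type 1 cells of both libraries held a match (6.82%: Agpat4, Bach2, Cd209a, Clec4a1, Cybb, Ifitm6, Pou2f2, Samsn1 and Spn). Without the rule gene Cd209a this was 8 of 131 (6.11%). Of the 104 that were lower, 2 did (1.92%: Arhgap18 and Strbp), and of all 3061 tested genes 100 did (3.27%). The windows of Xcr1, Clec9a, Itgam, Ccr1, Mgl2, Irf8 and Tlr3 held none. Of the 4 other motifs searched, the PU box (GAGGAAGT, which shares its core with the composite) was in 16 of the 132 higher genes (12.1%), 11 of the 104 lower (10.6%) and 159 of all tested (5.19%). The AP-1 site (TGANTCA) was in 21 higher (15.9%), 9 lower (8.65%) and 213 tested genes (6.96%). The interferon-stimulated response element, GAAA and GAAA with 2 bases between, was in 9 (6.82%), 9 (8.65%) and 148 (4.83%). The RBPJ site (GTGGGAA) was in 9 (6.82%), 8 (7.69%) and 206 (6.73%). A match is a description of letters and does not show binding.

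Members made up 1.11% of the kept cells of the normal library (exact binomial interval 0.886% to 1.38%) and 1.35% of those of the fibrosis library (1.08% to 1.68%). These intervals overlap. Cells with at least 2 UMIs of Xcr1 and Clec9a, at most 1 of Cd209a and otherwise the same limits served as type 1 dendritic cells. They numbered 132 in the normal library (1.77%, 1.48% to 2.09%) and 58 in the fibrosis library (0.946%, 0.719% to 1.22%). Members were therefore 38.6% of both dendritic classes in the normal library (32.1% to 45.5%) and 58.9% in the fibrosis library (50.3% to 67.1%). Both intervals cover counting error only, and cell isolation can shift such shares.

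Cells with at least 2 Cd209a UMIs numbered 161 and 135 in the normal and fibrosis libraries, and 83 of each passed every other limit. The largest overlapping loss was to the limit on Cd79a, Cd3e and Siglech, with 63 and 43 cells, of which 56 and 41 were over it by Siglech, a plasmacytoid dendritic cell gene, alone. The class II limit removed 35 and 24, the Xcr1 and Clec9a limit 19 and 10, and the macrophage limit 3 and 9. Just inside the Cd209a limit, 10 members of each library held 2 UMIs. Just outside, 15 and 24 cells that met all other limits held 1 UMI, and 284 and 364 held 0, with median depths of 3010 and 2604 UMIs. Members held a median of 6 and 8 Cd209a UMIs, with highest values of 33 and 32. Their summed class II level had a median of 272 and 258 UMIs per 10000. The lowest member was at 37.7 and 30.9, and the highest cell just under the limit was at 25.1 and 3.40.

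Members had median depths of 7320 UMIs and 2909 genes in the normal library and 7745 UMIs and 3211 genes in the fibrosis library. Type 1 cells were deeper, at 11609.5 and 10112 UMIs, and T cells shallower, at 4392 and 3411. Over 3 times the median of their class were 19 of 379 normal and 16 of 122 fibrosis T cells, and 1 and 4 members. Such cells weigh more in summed levels. The median doublet score of members (0.0492 and 0.0408) lay near that of all kept cells (0.0398 and 0.0499), and no member was called a doublet. The caller marked 1 cell in each library, so it gives little information on doublets. The libraries shared 15 cell barcodes, and none of these was a member.

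**Figure D1:**
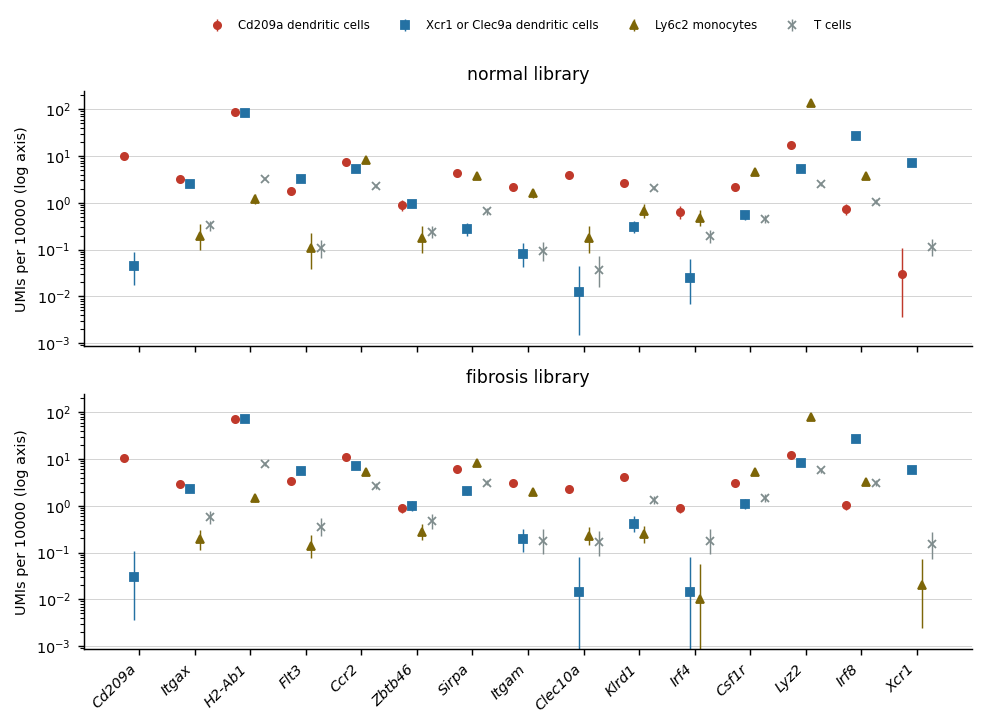
Summed UMIs per 10000 (log axis, bars are exact Poisson 95% intervals) of 15 genes in Cd209a dendritic cells, Xcr1 or Clec9a dendritic cells, Ly6c2 monocytes and T cells, by library; values of 0 are not drawn. Members sit with the Xcr1 or Clec9a cells for Itgax, H2-Ab1 and Zbtb46 and above them for Sirpa, Itgam, Clec10a, Klrd1 and Irf4, while Irf8 sits far below; Cd209a, H2-Ab1 and Xcr1 are rule genes, whose order the choice of cells fixed in whole or in part.

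Levels are UMIs of a gene summed over the cells of a class per 10000 summed UMIs of that class, and they are compared between classes or libraries, not between genes. The markers outside the rule were present in members, so the label was kept. Itgax, the CD11c integrin, was at 3.18 in normal and 2.85 in fibrosis members, against 0.195 and 0.19 in Ly6c2 monocytes and 0.328 and 0.569 in T cells. Flt3, the receptor for the growth factor of dendritic cells, was at 1.79 and 3.39, against 0.107 and 0.14 in monocytes. Ccr2, which guides monocytes and their kin out of the marrow, was at 7.56 and 11.03, against 8.11 and 5.24 in monocytes. Zbtb46, a factor of conventional dendritic cells, was at 0.894 and 0.876, against 0.178 and 0.28 in monocytes. Of the 86 fibrosis monocytes, 35 lay in a cluster led by Gpnmb, a scar-associated macrophage gene (clusters are described at the end). Gpnmb was at 0.461 in normal and 26.8 in fibrosis monocytes, so this class was not alike in the 2 libraries. Cd209a itself (10.0 and 10.5) and H2-Ab1 (86.5 and 69.9) are rule genes.

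Monocyte genes were present too, at lower levels. Lyz2, lysozyme, was at 17.1 in normal and 12.0 in fibrosis members, against 134 and 77.9 in monocytes and 5.35 and 8.06 in type 1 cells. Csf1r, the receptor of the macrophage growth factor, was at 2.14 and 3.12 in members and at 4.60 and 5.28 in monocytes, which were chosen with a UMI of it. Ly6c2, a marker of classical monocytes, was at 1.21 and 0.284, carried by 17 and 12 members, against 13.8 and 5.23 in the monocytes it helped to choose. In sum, members thus carried Flt3, Itgax and Zbtb46 together with Lyz2, Csf1r and Ccr2, and summed counts cannot show whether single cells held both sets.

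To count single cells at one depth, each cell was thinned to 2000 UMIs, which left out 2 normal members and 1 fibrosis member. A UMI of Flt3 was then found in 23 of 81 normal members (28.4%, exact interval 18.9% to 39.5%; 75.9% unthinned) and in 42 of 82 fibrosis members (51.2%, 39.9% to 62.4%; 89.2% unthinned). The share in T cells, which should lack Flt3, was 1.88% and 4.13%. The interval of the fibrosis share lay above that of the normal share. Csf1r was found in 42.0% and 40.2% of members, against 6.99% and 17.4% of T cells. Flt3 and Csf1r together were found in 7 of 81 normal members, with Flt3 alone in 16, Csf1r alone in 27 and neither in 31. In the fibrosis library both were found in 14 of 82, Flt3 alone in 28, Csf1r alone in 19 and neither in 21. The same cell could therefore carry both, but at this depth a missing UMI does not show absence. Ccr7, the receptor of dendritic cells that travel to lymph nodes, was found in 1 of 81 and 0 of 82 thinned members (exact upper bounds 6.69% and 4.40%), and in 2.41% of the unthinned members of each library.

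Genes were compared with type 1 cells within each library. A gene was tested at 0.5 UMIs per 10000 or more in either class, and called where the levels differed at least 2-fold with the exact interval of the ratio away from 1, the same way in both libraries. Of 3836 genes, 165 (4.3%) were higher in members and 131 (3.42%) lower. Of the type 2 dendritic cell list, all 8 genes tested outside the rule were higher (Clec10a, Mgl2, Clec4a2, Cd300a, Sirpa, Itgam, Tnip3 and Klrd1). Of the type 1 list, all 12 tested outside the rule were lower. The conventional dendritic cell list had 1 of 14 higher and 4 lower. The classical monocyte list had 4 of 10 higher and none lower, and the patrolling monocyte list 3 of 7 higher and 1 lower. The classes were split by Cd209a, Xcr1 and Clec9a, and the lists were chosen with earlier results of these data known, so these counts describe the split and are not independent support for it.

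**Figure D2:**
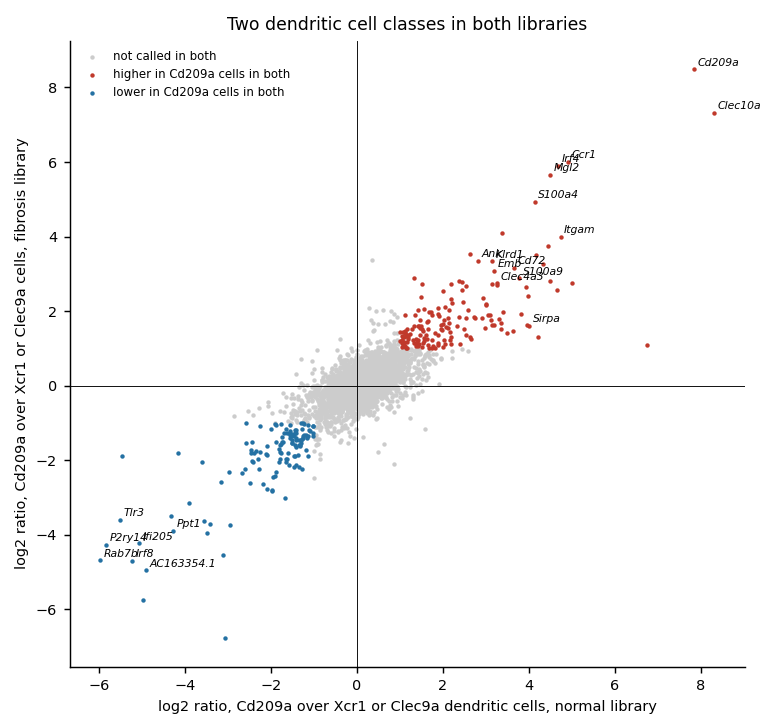
Log2 ratio of the summed level in Cd209a dendritic cells over Xcr1 or Clec9a dendritic cells in the normal library (x axis) and the fibrosis library (y axis), one point per gene above 0 in every class; red and blue points were called in both libraries. Clec10a stands farthest out beside the rule gene Cd209a, and Irf8, Rab7b and Tlr3 lie in the opposite corner.

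Among higher genes outside the rule at a level of 1 or more in members of both libraries, Clec10a had the largest ratios. Ccr1, S100a4 and Itgam followed, ranked by the smaller ratio of each. Clec10a, a galactose-binding lectin, was at 3.96 in members and 0.0125 in type 1 cells of the normal library (2 UMIs; ratio 317.5, 87.0 to 2636). It was at 2.33 and 0.0146 in the fibrosis library (1 UMI; ratio 159.5, 28.3 to 6332). Mgl2, its neighbour and near relative on chromosome 11, was at 4.65 against 0.206 and at 0.741 against 0.0146. Reads shared by this pair, or by the Cd209 genes, may have been lost or misplaced by counting unique matches only. Itgam, the CD11b integrin, was at 2.17 against 0.081 (26.8-fold, 15.2 to 51.5) and at 3.04 against 0.190 (16.0-fold, 9.16 to 30.4). Sirpa, an inhibitory receptor for Cd47, was at 4.44 against 0.274 and at 6.22 against 2.05, with T cells at 0.655 and 3.13. Klrd1, the CD94 receptor subunit best known from natural killer cells, was at 2.71 against 0.305 (8.89-fold, 6.45 to 12.5) and at 4.13 against 0.410 (10.1-fold, 6.86 to 15.4). Cd72, a receptor best known from B cells, was at 1.02 against 0.081 and at 2.09 against 0.234.

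Chemokine and cytokine genes were counted by list. Ccr1, a receptor for inflammatory chemokines, was at 1.319 against 0.0436 (30.2-fold, 14.1 to 77.4) and at 1.88 against 0.0293 (64.1-fold, 17.5 to 534). Among other chemokine receptors, Cx3cr1 was higher in both libraries and Cxcr3 lower. Of 15 cytokine and receptor genes, 7 were higher and none lower by this call in both libraries: Il1b, Tnf, Tnfsf9, Il13ra1, Csf1r, Tgfbr1 and Tgfbr2. Il1b, an inflammatory cytokine, was at 2.35 against 0.579 and at 2.38 against 0.702, with T cells at 0.378 and 0.509. Tnfsf9, the ligand of a T cell costimulator, was at 0.712 against 0.131 and at 1.11 against 0.161. Of 7 chemokines, Ccl3, Ccl6 and Ccl9 were higher. Ccl9 was at 2.82 against 0.112 (25.1-fold) and at 3.04 against 0.512 (5.93-fold).

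Of 24 transcription factors, 3 were higher, 3 lower and 18 not called in both libraries. Irf4 was at 0.637 in members and 0.0249 in type 1 cells of the normal library (25.6-fold), and at 0.876 and 0.0146 in the fibrosis library (1 UMI; 59.9-fold). Irf8 ran the other way, at 0.728 against 27.2 (ratio 0.0268, 0.0197 to 0.0356) and at 1.02 against 26.6 (ratio 0.0385, 0.0305 to 0.048). The members' Irf8 was no higher than that of T cells (1.06 and 3.09). Zeb2 and Nfkb1 were also higher, and Batf3 and Id2 lower. Zeb2 was at 4.94 against 0.486 and at 7.06 against 2.18. Batf3 was at 1.0 against 2.52 and at 0.531 against 1.59, and Id2 was at 5.71 against 18.1 and at 9.08 against 20.2. Spi1, Notch2 and Rbpj were among those not called.

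The 10 genes lowest in members were taken outside the rule, at a level of 1 or more in type 1 cells of both libraries. They included Irf8, Tlr3, Rab7b, Itgae and Ppt1. Tlr3, a sensor of double-stranded RNA, was at 0.0909 against 4.15 (ratio 0.0219) and at 0.309 against 3.74 (ratio 0.0824). Rab7b, an endosomal GTPase, was at 0.0758 against 4.75 and at 0.222 against 5.72. Itgae, the CD103 integrin, was at 0 in normal members against 1.73. This is 38.1-fold lower with a floor of 3 counts over the members, and the exact interval begins at 30.8-fold. In the fibrosis library it was at 0.0247 against 1.55 (2 UMIs; ratio 0.0159, 0.0019 to 0.059). Ppt1, a lysosomal thioesterase, was at 0.788 against 15.3 and at 0.815 against 12.1. Snx22, Gcsam, P2ry14, Ifi205 and the unnamed gene AC163354.1 completed the 10 lowest. Tlr12, a sensor of profilin, was at 0 in both member groups and at 0.885 and 0.790 in type 1 cells.

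Both classes had to pass the same class II limit. Of 14 other class II presentation genes tested, H2-DMb2, Ctss and Ctsh were higher in members and Cst3 and Cd86 lower. Ctss, the protease that trims the invariant chain, was at 11.3 against 3.87 and at 13.2 against 5.98. Cst3, the cysteine protease inhibitor cystatin C, was at 38.1 against 186.7 and at 23.4 against 91.2. Ciita, the regulator of class II genes, differed little, at 4.24 against 4.02 and at 3.99 against 3.51. Of 16 class I genes, only Psmb9, an immunoproteasome subunit, was called, lower in both libraries.

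Of 18 S100 and cytoskeleton genes, S100a4, S100a6, S100a8 and S100a9 were higher and none lower. For S100a8, 1 normal member held 77.8% of the UMIs and 1 fibrosis member 54.3%, and 11 and 8 members carried it. S100a4, a calcium-binding protein, was at 15.8 against 0.897 (17.6-fold, 14.8 to 21.1) and at 5.37 against 0.175 (30.6-fold, 17.3 to 59.7), and was carried by 75 and 81 of the 83 members. S100a9, a calprotectin subunit of neutrophils and monocytes, was at 2.56 against 0.187 and at 1.07 against 0.146, but came from 12 members in each library. Without the 3 cells with most UMIs, its smaller log2 ratio turned to -0.07. Cybb was at 7.64 against 0.480 (15.9-fold) and at 8.82 against 1.65 (5.34-fold). Emb, Ank and Clec4a3 completed the 10 highest outside the rule at a level of 1 or more in members of both libraries. The lowest of their ratios was 6.69-fold.

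The fibrosis and normal members were compared by the same call. Of 4590 genes tested, 324 (7.06%) were higher in fibrosis members and 194 (4.23%) lower, with a median log2 ratio of 0.14 over all tested genes. Counted as UMIs per cell, 715 were higher and 144 lower, and the median moved to 0.43. Many of these genes belong to other liver cells and moved in T cells as well. Of the calls, 123 of the higher and 53 of the lower differed from the T cell log2 ratio by at least 1, in either direction. In type 1 cells, which share the libraries, 147 of the 324 were also called higher (45.4% of the members' calls and 39.8% of the type 1 cells' 369). Of the 194, 103 were also lower (53.1% and 56.9% of 181). How far free RNA (released by broken cells into the suspension) accounts for these calls was not tested.

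**Figure D3:**
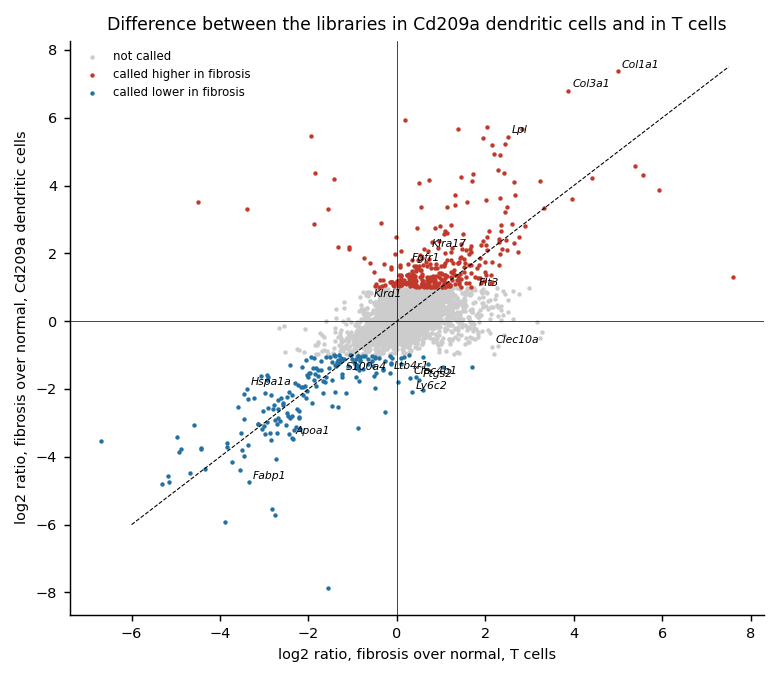
Log2 ratio of fibrosis over normal summed levels in T cells (x axis) and in Cd209a dendritic cells (y axis), one point per gene with UMIs in all 4 groups; the dashed line marks equal ratios. Col1a1 and Fabp1 move in both classes, whereas Ltb4r1 and Fgfr1 lie near 0 for T cells.

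Genes of hepatocytes were lower and those of stellate cells and macrophages higher in fibrosis members. All 10 hepatocyte genes were lower, with a median log2 ratio of -2.93. Their summed level was 137.8 and 22.99 in members and 196.5 and 26.8 in T cells. All 9 stellate cell and fibroblast genes tested were higher, with a median of 5.23 where Col1a2, at 0 in normal members, is set at its bound. Their summed level went from 0.682 to 32.6 in members and from 6.19 to 31.8 in T cells. Col1a2, a chain of type I collagen, was at 0 and 6.99. The bound is 154-fold with 3 counts over the members as the floor, and the exact interval begins at 124.5-fold. Dcn, decorin, was at 0.182 and 7.70. Of the fibrosis UMIs, a single member held 52.1% for Col1a2, which was at 3.47 without it and at 1.48 in the main clusters, and 51.1% for Col1a1. In the 72 fibrosis members of the main clusters, described at the end, the stellate list summed to 6.52 against 0.683 in the 76 normal ones, and 5 of 5 genes tested were higher. Of 7 Kupffer cell genes outside the rule, 6 were higher. The list without the rule genes summed to 3.88 and 14.8 in members and 5.57 and 30.4 in T cells. T cells, unlike members, had no macrophage limit. Of 11 scar-associated macrophage genes, 8 were higher, and Gpnmb was at 0 and 2.20 in members against 0.0277 and 1.27 in T cells. One fibrosis member held 54.5% of the Gpnmb UMIs, and without it the level was 1.03. In the main clusters 5 of the 11 were higher (Gpnmb, Ctsd, Cd63, Lpl and Trem2), and the list summed to 16.6 and 23.4, against 16.1 and 49.1 over all members. Any UMI of Clec4f, Vsig4 or Cd5l was present in 48 normal and 79 fibrosis members. The endothelial list had 3 of 12 genes higher (Bmp2, Lyve1 and Oit3; with Kdr and Flt4, 5 of 12 in the main clusters), with summed levels of 19.9 and 27.3 in members and 25.5 and 36.7 in T cells. Of the 3 cholangiocyte genes tested, all were called higher, but 1 fibrosis member held 86.1% of the Spp1, 91.1% of the Clu and 95.2% of the Sox9 UMIs, and Clu without the top cell of each library was at 1.43 and 1.42. The part of free RNA in these differences was not tested.

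The 20 genes with the largest ratios were taken among those at a level of 1 or more in at least 1 library. Their fitted ratio also had to stand at least 2-fold apart from that of T cells, in either direction. Gnmt, Vtn and Hspa1a fell further in T cells (ratios 0.033, 0.0963 and 0.096) than in members (0.0683, 0.204 and 0.25). For Gpnmb, at 0 in normal members, the bound of 48.3-fold at a floor of 3 counts does not show such a distance from the 46.0-fold of T cells. Its exact interval begins at 38.9-fold. Col1a1, Col3a1, Lum, Rgs5, Steap4, Reln and Lpl were higher beside Col1a2, Dcn and Gpnmb. Lpl, the lipase of triglyceride-rich particles, was at 0.0909 and 3.96 in members and 0.452 and 2.58 in T cells. One fibrosis member held 53.9% of its UMIs, and without the top cell of each library Lpl was at 0.0768 and 1.89 in members. The lower ones were Ccl17, Hpd, Fabp1, Gnmt, Rbp4, Apoa1, Mgl2, Vtn, Ly6c2 and Hspa1a. Fabp1, Apoa1 and the other hepatocyte transcripts were lower in T cells too. Hspa1a, an inducible chaperone, was at 10.7 and 2.67 in members, at 14.1 and 1.11 in type 1 cells and at 5.62 and 0.539 in T cells, with 62.0% of the fibrosis members' UMIs in 1 cell.

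The type 2 genes themselves mostly stayed within 2-fold. Of 10 tested outside the rule, 2 were lower (Mgl2 and Cd7) and none higher, with a median log2 ratio of -0.39. Mgl2 was at 4.65 in normal and 0.741 in fibrosis members (ratio 0.159, 0.119 to 0.21). It was carried by 40 and 26 of the 83 members, with highest single-cell values of 30.3 and 7.84 UMIs per 10000, and T cells were at 0 and 0.015. After thinning, 33.3% (23.2% to 44.7%) and 15.9% (8.72% to 25.6%) of members held it, and these intervals overlap. The highest normal cells thus lay above all fibrosis members. Clec10a was at 3.96 and 2.33 (ratio 0.59, 0.486 to 0.714), which is short of 2-fold. Klrd1 was at 2.71 and 4.13 (1.52-fold, 1.27 to 1.84) and Itgam at 2.17 and 3.04 (1.40-fold, 1.14 to 1.73). Cd7, a T cell and natural killer cell gene, was at 0.50 and 0.16 in members and at 2.43 and 0.794 in T cells.

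**Figure D4:**
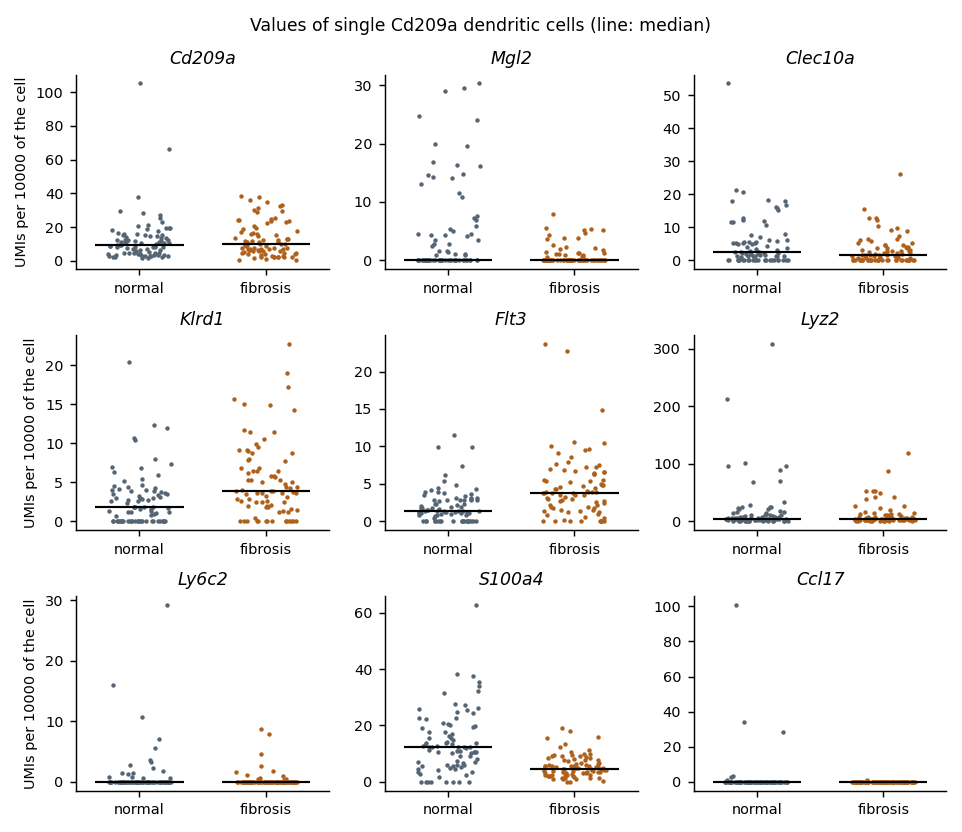
UMIs per 10000 in each of the 83 normal and 83 fibrosis Cd209a dendritic cells for 9 genes; points are cells, spread sideways for sight, and lines are medians. Mgl2 has a tail of normal members up to 30.3 that fibrosis members lack, S100a4 is lower over most fibrosis members, and Ccl17 rests on 6 normal members.

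None of the 14 conventional dendritic cell genes was called, at a median of -0.10. Flt3 came nearest, at 1.79 and 3.39 (1.90-fold, 1.52 to 2.38), and type 1 cells went from 3.31 to 5.56. Cd74, the invariant chain, was at 204 and 134 (ratio 0.656) and Cst3 at 38.1 and 23.4 (ratio 0.614). Of 14 class II genes outside the rule, Lgmn and Ctsl were higher. Lgmn, a lysosomal endopeptidase, was at 1.83 and 7.57 in members and at 1.38 and 9.23 in T cells. Of 16 class I genes, Psmb8, an immunoproteasome subunit, was lower at 5.53 and 2.26, with T cells at 4.47 and 2.40. None of 16 cytokine and receptor genes, 10 costimulation genes, 6 chemokine receptors, 8 pattern recognition genes or 16 immediate early genes was called. Ccr2 was at 7.56 and 11.03 (1.46-fold, 1.31 to 1.63), found in 70 and 82 of the 83 members.

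Chemokines were called in both directions, 3 of 12 each way. Ccl17, which draws T cells through Ccr4, was at 2.43 in normal and 0.0247 in fibrosis members (2 UMIs; ratio 0.0102, 0.00122 to 0.0374). It came from 6 normal members, 1 of which held 41.3% of its UMIs, and from 1 fibrosis member. Ccl22, a second ligand of Ccr4, was at 0.576 and 0.0494, in 4 and 2 members. These differences rest on a few cells. Cxcl9, an interferon-gamma target, was at 0.834 and 0.346, in 10 and 11 members, but 1 normal member held 56.4% of its UMIs. Without the top cell of each library it was at 0.367 and 0.239 (ratio 0.649). Cxcl1, Cxcl2 and Pf4 were higher. Cxcl2, a neutrophil attractant, was at 0.197 and 3.42 in members and at 0.189 and 1.18 in T cells, in 5 and 44 members. One normal member held 61.5% of its UMIs and 1 fibrosis member 32.1%. In the main clusters, described at the end, Cxcl2 was at 0.0512 and 1.125 and was still called higher.

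C-type lectins and scavenging receptors were also called both ways, 3 of 11 each. Clec4b1 was at 1.06 and 0.333 (ratio 0.314, 0.194 to 0.496), in 33 and 17 members, with T cells at 0.0369 and 0.0449. Cd209d was at 0.591 and 0.0987 (ratio 0.167, 0.0674 to 0.363), in 12 and 7 members. Cd209d was at 0 in type 1 cells of both libraries. Mrc1, Cd36 and Msr1, which Kupffer and endothelial cells carry, were higher in members, and T cells moved from 2.44 to 5.63 for Mrc1 and from 0.955 to 3.91 for Cd36.

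Of 14 classical monocyte genes tested, S100a9, Hp, Ly6c2 and Ms4a4c were lower and Fn1 was higher, with a median of -0.67. One normal member held 73.4% of the S100a9 UMIs, and without the top cell of each library S100a9 was at 0.688 and 0.564 (ratio 0.819). Among members of the main clusters Hp and Ly6c2 were lower and none of 11 was higher. Ly6c2 was at 1.21 and 0.284 (ratio 0.234, 0.14 to 0.376), with T cells at 3.19 and 4.06. Ms4a4c was at 3.23 and 1.60 (ratio 0.497) in members and at 4.33 and 1.27 in monocytes. Of the 86 fibrosis monocytes, 35 lay in the cluster led by Gpnmb. Fn1, fibronectin, was at 1.17 and 2.73 in members and at 1.04 and 2.11 in T cells. Of 18 S100 and cytoskeleton genes, S100a4, S100a10 and, with the limit just given, S100a9 were lower and none higher. S100a4 was at 15.8 and 5.37 (ratio 0.34, 0.303 to 0.381), with single-cell medians of 12.3 and 4.64. It was also lower in monocytes (17.98 and 3.37), type 1 cells (0.897 and 0.175) and T cells (3.73 and 1.57). The monocyte values compare classes that were not alike in the 2 libraries.

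In the other lists, 7 of 20 lysosome genes were higher and none lower, led by Gpnmb, Cd63 and Ctsd. Ctsb, a lysosomal protease, was at 4.77 and 18.9 in members and at 4.54 and 22.7 in T cells. Of 20 lipid and oxidative defence genes, 8 were higher and Ltb4r1 lower. A single fibrosis member held 81.2% of the Hmox1 UMIs, and a single one held 55.4% of the Fabp5 UMIs. In the main clusters neither was called, with 6 higher and 2 lower (Ltb4r1 and Gclm). Of 19 interferon response genes, Rsad2 was higher (0.334 and 0.679) and Gbp2 lower (1.02 and 0.247). One normal member held 49.3% of the Gbp2 UMIs, and without the top cell of each library Gbp2 was at 0.521 and 0.214. Among members of the main clusters Rsad2 was not called, and 5 of 22 were lower (Zbp1, Gbp2, Isg15, Ifitm3 and Ifit3). Of 24 transcription factors, Tcf4 was higher (1.82 and 3.81), with T cells at 1.53 and 2.88. Of 14 cell cycle genes, Ube2c and Ccnb2 were higher. Mki67 or Top2a was found in 16.0% (8.83% to 25.9%) of normal and 30.5% (20.8% to 41.6%) of fibrosis members after thinning, with T cells at 11.6% and 26.4%. Of 10 heat shock genes, Hspa1a and Hspa1b were lower and 8 were not called. Of 3 plasmacytoid dendritic cell genes, Atp1b1 and Tcf4 were called higher, but 1 member held 96.4% of the fibrosis Atp1b1 UMIs, and its carriers numbered 8 and 3. Of 6 patrolling monocyte genes, Cd36 was higher. Integrins Itga6, Itgav and Itgb5, the C1q genes, and Fn1, Spp1, Mmp14, Mmp12 and Timp2 of the matrix list were higher, of which Itgav, Fn1, Spp1, Mmp12 and Timp2 were not called among members of the main clusters. Without the rule genes Cd79a and Cd3e, the B cell list summed to 0.379 and 0.531 in members, the T cell list to 0.591 and 0.469 and the natural killer cell list to 0.682 and 0.333, though the limit on those genes keeps such cells out in part, and no gene of those lists reached the floor for testing.

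Some called genes stood, averaged over both libraries, at 4 or more times the T cell level, a choice made after the values were seen. Because the members' own level decides entry, no count of them is read. Fgfr1, a fibroblast growth factor receptor, was at 0.364 and 1.16 (3.19-fold, 2.02 to 5.22), in 19 and 39 members, with type 1 cells at 0.442 and 0.468. Klra17, a Ly49 family receptor, was at 0.167 and 0.704 (4.22-fold, 2.19 to 8.92), in 9 and 31 members. Myof, Gcnt1, Smim3 and Epha2 were the others that were higher, each carried by 25 to 43 fibrosis members. The lower ones included Mgl2, Clec4b1, Cd209d, Ccl17 and Ccl22. Ltb4r1, the leukotriene B4 receptor, was at 1.71 and 0.592 (ratio 0.346, 0.241 to 0.489), in 52 and 34 members. Ptgs2, the inducible cyclooxygenase, was at 1.08 and 0.321 (ratio 0.298, 0.183 to 0.473), in 16 and 12 members.

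The members did not fall into 1 cluster when each library was clustered without the rule genes. In the normal library 76 of 83 lay in a cluster of 458 cells that also held 101 type 1 cells and 54 monocytes. In the fibrosis library 48 lay in a cluster of 310 cells with 54 type 1 cells and 4 monocytes. Another 24 lay in a cluster of 217 cells with 0 type 1 cells and 17 monocytes. The other 11 lay in clusters led by genes of other cells, at a median depth of 14234 UMIs, against 7626 and 6996 for the 48 and the 24. Of these, 6 were in a cluster with Ntm and Colec11 among its leading genes, 2 in one led by Gpnmb, 2 in one led by Retnlg and Camp, and 1 in one led by Pkhd1 and Sftpd. They passed the rule, but these values go against the label for them, and whether their barcodes held more than 1 cell was not tested. Of the 7 normal members outside the main cluster, 4 lay in a cluster led by cell cycle genes, 2 in one led by neutrophil genes and 1 in one led by Siglech, Klk1 and Atp2a1.

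The counts were repeated with the 76 normal and 72 fibrosis members of the main clusters, a choice made after the data were seen. Of 4580 genes, 364 were higher in the fibrosis library and 244 lower, and 203 of the 324 and 181 of the 194 calls over all members were among them. Flt3 then passed the call, at 1.83 and 4.13 (2.26-fold, 1.80 to 2.87), and so did Klrd1, at 2.44 and 5.24 (2.15-fold, 1.76 to 2.64). Mgl2 and Cd7 stayed lower. Of 15 cell cycle genes 11 were higher, but 4 of the normal members left out were those in the cluster led by such genes. Of the matrix list only Mmp14 was higher, of 14 tested. Against type 1 cells, 182 of 3799 genes were higher in both libraries and 128 lower, with 9 of 9 type 2 genes higher and 12 of 12 type 1 genes lower.

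The values that follow for the 48 and 24 cells describe the difference by which the cells were clustered and are not a test of it.

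**Figure D5:**
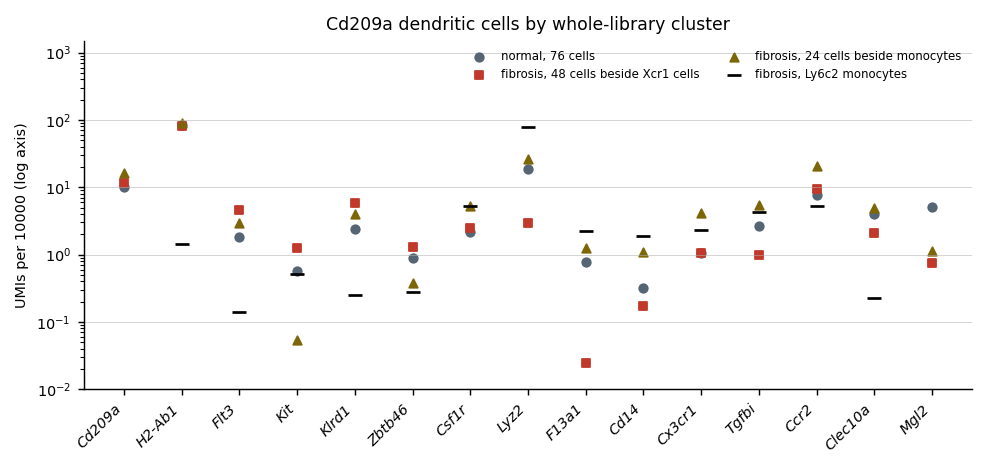
Summed UMIs per 10000 (log axis) of 15 genes in the 76 normal members of the leading cluster, in the 48 and 24 members of the main fibrosis clusters and in Ly6c2 monocytes; values of 0 are not drawn. The 24 cells lie above the 48 for Lyz2 (26.1 and 2.94), F13a1, Tgfbi and Csf1r. Their Lyz2 is still below that of the monocytes (77.9), and their Clec10a lies above that of the monocytes. Of the 86 monocytes, 35 lay in a cluster led by Gpnmb. Cd209a and H2-Ab1 are rule genes. The choice of cells fixed, in whole or in part, their order against the monocytes, not among the member groups.

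The 24 cells beside monocytes carried more Lyz2 (26.1 against 2.94 in the 48; ratio 8.87, 7.25 to 10.9). F13a1, a transglutaminase of monocytes, was at 1.25 against 0.0243, and Cd14, the LPS coreceptor, at 1.09 against 0.17. Cx3cr1 was at 4.13 against 1.07 and Csf1r at 5.21 against 2.46. Ccr2 was at 20.8 against 9.58 and Clec10a at 4.94 against 2.07. The 48 cells carried more Kit (1.26 against 0.0543), Zbtb46 (1.29 against 0.38) and Fgfr1 (1.63 against 0.271). They also carried more Igha (34.7 against 2.39) and Stab2 (2.48 against 0.597), genes of plasma cells and endothelium. Flt3 (4.67 against 2.93), Klrd1 (5.76 against 4.07) and Irf4 (1.26 against 0.76) differed by under 2-fold. H2-Ab1 (80.9 against 89.1) and S100a4 (5.93 against 6.19) were close. In the 76 normal cells Lyz2 was at 18.6 and F13a1 at 0.768, between the fibrosis clusters. Mgl2 was at 5.03 in them, 0.754 in the 48 and 1.14 in the 24, so it was lower in both fibrosis clusters.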

How the data were processed

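Single-cell 3' libraries (Chromium version 3) of hepatic non-parenchymal cells were used, 1 per condition. Per the labels and the study's methods, the authors deposited raw UMI counts per gene and barcode, made with Cell Ranger 3.0.1 on mm10 from uniquely mapped reads. The normal library held 8130 cells and 44062632 UMIs, and the fibrosis library 6437 cells and 53288463 UMIs. Members, comparison classes, gene lists and motifs were chosen with earlier results of these data known.

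Counts were summed over the cells of a class. Levels carry exact Poisson, ratios exact conditional and shares exact binomial intervals (scipy 1.17.1), at 95%, for counting error only. Genes were named as the 5 markers of the cells (Cd209a, Itgax, H2-Ab1, Flt3 and Ccr2), from the lists (called genes and up to 4 of the highest) and by size, as the 10 highest and lowest at 1 UMI per 10000 or more. Between libraries, these had to stay past 2-fold without the 3 top cells and to differ from T cells by 1 on the log2 scale, in either direction. Col1a2, Gpnmb, Col1a1, Col3a1 and Lum were carried by at most 3 normal members. Without the 3 top cells their normal level was 0, so that check could not fail for them. Doublets were scored with Scrublet (scanpy 1.11.5, expected rate 0.06) and not removed. Clusters used 2000 variable genes without the rule genes, 10 components, 20 neighbours and resolution 0.8. The ratio call was tested on simulated pooled counts without spread between cells, so that test does not cover genes held mostly by 1 cell. Ly6c2 monocytes had at least 2 Ly6c2 UMIs, 1 or more of Csf1r, no Cd209a and class II under its limit, and T cells at least 2 Cd3e UMIs and no Cd79a or Cd209a. Other Cd209a, class II, lymphoid, mitochondrial, doublet, depth, floor and scaling choices were tried as alternatives. Promoters came from RefSeq and gene positions from GENCODE. Some genes are not reported here.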

Additional observations from a re-analysis of the deposited data

How the results depend on the processing

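No paired analysis was possible because each condition has 1 library, and no library could be left out. With Cd209a at 1 UMI or more, the fibrosis share was 1.75%, and at 4 or more the shares were 0.830% (normal) and 1.03% (fibrosis). With a mitochondrial limit of 5% they were 1.46% and 2.46%, and 316 genes were lower in fibrosis members. As UMIs per cell, 715 genes were higher in fibrosis members, and 90 were higher and 238 lower than in type 1 cells. With no floor, 979 were higher and 522 lower in fibrosis members, and 330 higher and 218 lower than in type 1 cells. With a floor of 2 per 10000 these counts were 52, 58, 42 and 34. All other planned settings kept the counts within 1.5 times, among them median-ratio scaling (273 higher, 227 lower). In the leading clusters, chosen after the data were seen, 484 were higher and 290 lower of 4658. In the main clusters, also chosen afterwards, 364 were higher and 244 lower. The smaller log2 ratio of S100a9 against type 1 cells was -0.66 with 4 Cd209a UMIs, -0.13 with the 5% limit and -0.071 without the 3 top cells. Of the other ratios of genes named by size, 279 values kept within their interval and 41 moved between libraries, and 291 kept and 26 moved against type 1 cells, with no change of direction. The cause of these changes was not tested.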
